A study of Mus musculus with 12 samples.

Results

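Colony-stimulating factors are secreted or membrane-bound proteins that keep blood cell precursors and their mature offspring alive, growing and active. The genes described here are the ligands Csf1 (M-CSF), Csf2 (GM-CSF), Csf3 (G-CSF), Il34 (interleukin 34) and Kitl (stem cell factor), with Csf1r, the receptor shared by Csf1 and Il34. They were taken by symbol, through the Ensembl identifiers of the count table, and were chosen with earlier results of these data known. All 6 were among the 55822 identifiers of the table, and 4 of them (Csf1, Csf2, Kitl and Csf1r) passed the filter on low counts that left 16140 genes for testing. Csf3 and Il34 did not pass and are given as counts summed over the libraries of a group. Csf2 and Csf1r passed only through the group in which they were high, so a count of the members that passed carries no weight as support.

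RNA was sequenced from primary mouse aortic smooth muscle cells in 12 libraries, 4 for each of 3 media. The first group received conditioned medium (CM) of naive macrophages grown from bone marrow, called naive CM. The second received CM of macrophages that had been primed overnight with 20 ng/mL interferon gamma (IFNγ), given 100 ng/mL lipopolysaccharide (LPS) for 4 hours and washed, called IFNγ/LPS CM. The third was kept in regular growth medium, and the labels give neither its serum content nor any starvation or exposure time for it. For both CM groups the smooth muscle cells were first starved for 48 hours in 0.3% serum. The macrophages then conditioned, over 24 hours, a fresh medium that held 0.3% serum and 10 ng/mL M-CSF, and the smooth muscle cells stayed in it for 24 hours. M-CSF protein, the product of Csf1, was thus added to both CM and is not stated for regular medium. The strain, sex and age of the mice are not given in the labels.

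Total estimated counts per library ran from 28097496 to 61493375. The columns of the table are named by M0 and M1, which were read as naive and IFNγ/LPS macrophages after the usual names of these states, and each direction below depends on that reading. The titles speak of biological replicates and name no animal or culture for them, so the spread behind each p-value is that among these libraries and may be partly technical. Summed over 12 smooth muscle markers, the level was 1110 to 1232 CPM (counts per 1000000 counts, scaled between libraries) in regular medium, 712 to 803 CPM in naive CM and 237 to 256 CPM in IFNγ/LPS CM. Myh11, smooth muscle myosin, was at 0.716, 0.592 and 0.203 CPM in these groups, so this defining marker was near absent throughout. Cald1 averaged 808, 453 and 118 CPM and Acta2 280, 220 and 77.3 CPM, so these 2 markers made up most of each sum. Of 11 markers tested by edgeR, 4 were higher and 4 lower in naive CM against regular medium (18.3% and 16.4% of all tested genes). Against naive CM, 1 was higher and 8 lower in IFNγ/LPS CM (36.1% and 35.8% of all tested genes).

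In blood and tissue, Csf1 and Il34 bind the receptor tyrosine kinase Csf1r on monocytes and macrophages, which depend on it for survival. Csf2 and Csf3 act through cytokine receptors coupled to JAK kinases, Csf2 mainly on granulocytes and macrophages and Csf3 on neutrophils. Kitl binds the receptor tyrosine kinase Kit on blood stem cells and mast cells. Cells of the vessel wall are known sources of Csf1 and, under inflammatory stimulation, of Csf2 and Csf3, whose short-lived messages carry AU-rich elements in the 3′ untranslated region.

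Per length of message, Csf1 was the most abundant of the 6 genes in each group, and it was highest in IFNγ/LPS CM and lowest in naive CM. The gene (ENSMUSG00000014599) spans chr3:107741048-107760469 on the minus strand of GRCm38. Its 4 libraries in IFNγ/LPS CM stood at 957, 951, 950 and 874 CPM. In naive CM they stood at 187, 189, 186 and 199 CPM, and in regular medium at 284, 266, 298 and 260 CPM. The 3 groups did not overlap, and the lowest library of IFNγ/LPS CM exceeded the highest library of the other groups by far more than the range within any group. The means were 933 ± 39.3, 190 ± 6.09 and 277 ± 17.0 CPM (SD, n = 4 each). Against naive CM the log2 fold change of IFNγ/LPS CM was 2.29 (SE 0.049, edgeR adjusted p = 8.15e-19), a 4.90-fold rise. Csf1 fell by 0.54 on the log2 scale in naive CM against regular medium (SE 0.047, edgeR adjusted p = 4.64e-08) and rose by 1.75 in IFNγ/LPS CM against regular medium (edgeR adjusted p = 4.26e-17). In bulk RNA, fewer cells of a type and less RNA per cell cannot be told apart, which holds for each fall and rise given here. The smooth muscle marker levels given above also differed between these groups. So did the sum over 10 markers of adventitial fibroblasts, at 2097 to 2350 CPM in regular medium, 2497 to 2677 CPM in naive CM and 6907 to 7617 CPM in IFNγ/LPS CM. Of these 10, 8 were tested, and against naive CM 3 rose (Pdgfra, Ly6a and Dcn, by 2.30, 3.47 and 1.55 on the log2 scale) and 4 fell (Dpt, Pi16, Gsn and Cd34). Dcn and Ly6a, at 4674 and 2379 CPM on average, made up most of the sum in IFNγ/LPS CM. The median log2 fold change of the 8 tested markers against naive CM was -0.82. None of the 10 was without counts in any group. The part of either marker list in the result was not tested.

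Of the members, 3 of the 4 tested rose in IFNγ/LPS CM against naive CM, where 36.1% of all tested genes were higher and 35.8% lower. In naive CM against regular medium edgeR called 0 members higher (1 at an unadjusted p under 0.05, Kitl, and 0 by DESeq2 or limma-voom) and 1, Csf1, lower, where 18.3% of all tested genes were higher and 16.4% lower. All 4 were called higher in IFNγ/LPS CM against regular medium, where 35.4% of all tested genes were higher and 36.4% lower, but Kitl was among these 4 and with library totals in place of the main scaling 3 were higher and 1 lower (20.3% and 59.5% of all tested genes). The first and the third of these comparisons share the IFNγ/LPS CM libraries, and the second shares a group with each. The median log2 fold change of all tested genes was 0.004, -0.017 and -0.026 in the 3 comparisons in turn, and none is given for the members, since the filter itself favours members that differ.

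The stretch of genome before the start of Csf1 is shown because it holds the only match, among the windows looked at for the members, to a site of NF-κB, the transcription factor family that drives many inflammatory genes. The sequence is that of RefSeq on GRCm38.p6, the 250 bases before the start site, chr3:107760470-107760719, read 5′ to 3′ on the minus strand. Capitals mark the match, which begins 154 bases before the start and reads GGGACTTTCC on the other strand.
Csf1: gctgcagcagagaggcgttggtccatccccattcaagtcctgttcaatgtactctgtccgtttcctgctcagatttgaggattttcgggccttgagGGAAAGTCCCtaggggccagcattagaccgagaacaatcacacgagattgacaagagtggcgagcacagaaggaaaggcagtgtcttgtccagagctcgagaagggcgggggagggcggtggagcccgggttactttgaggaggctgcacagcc
A match to the NF-κB motif on either strand was held by 3.9% of 32851 RefSeq windows of this length. The Csf1 window held no match to the other motifs searched on both strands, which were GAGATTCC (the core of the CK-1 element described for Csf2 and Csf3, held by 0.755% of windows), TATAAA (12.4%) and TGAGTCA (the AP-1 site, 4.46%). Windows were found for 3 of the 5 ligands. That of Kitl held TATAAA 25 bases before its RefSeq start, and that of Csf2 held none of the 4 motifs. The RefSeq start of Kitl (100015821) lies downstream of its start in the annotation used for the counts (100015630). The TATAAA thus lies within the gene as annotated there. The RefSeq start of Csf2 lies 232 bases upstream of the start in the annotation used for the counts, so its window does not reach the sequence next to the latter. A match is a description of letters and shows no binding.

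Il34, the other ligand of Csf1r, was close to absent in every group. The gene (ENSMUSG00000031750) spans chr8:110741829-110805924 on the minus strand. Its counts were 0, 3, 3 and 1 in the libraries of regular medium, 3, 1, 1 and 4 in naive CM, and 3, 2, 1 and 3 in IFNγ/LPS CM. The groups overlapped, and the sums were 7, 9 and 9. After scaling, the ratio of IFNγ/LPS CM to naive CM was 1.41 with an exact 95% interval of 0.497 to 4.01, so a difference in either direction up to these bounds was not detectable at this depth. Intervals on counts cover counting error only. Per kilobase of exon, Csf1 stood at 177 ± 7.43 CPM in IFNγ/LPS CM, 36.0 ± 1.15 in naive CM and 52.5 ± 3.23 in regular medium (SD, n = 4 each), and Il34 at no more than 0.0325 on average in any group. On that scale Csf1 made up at least 99.9% of the summed Csf1 and Il34 level in each of the 12 libraries. The share differed between IFNγ/LPS CM and naive CM by 0.044 percentage points (exact permutation test, two-sided, p = 0.0571, 0.171 after Benjamini-Hochberg adjustment over 3 comparisons, where 0.0286 is the smallest p that 4 libraries against 4 can give). The other differences were -0.024 points for naive CM against regular medium (exact p = 0.257, adjusted 0.386) and 0.020 points for IFNγ/LPS CM against regular medium (exact p = 0.429, adjusted 0.429).

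Csf2 was present in IFNγ/LPS CM and almost without counts elsewhere. The gene (ENSMUSG00000018916) spans chr11:54247271-54249667 on the minus strand. The libraries of IFNγ/LPS CM held 595, 572, 610 and 585 counts, or 16.0, 16.6, 16.9 and 17.3 CPM. Naive CM held 0, 0, 1 and 0 counts, and regular medium 5, 1, 0 and 0. No library of IFNγ/LPS CM came near those of the other groups, and 5 of the 6 counts in regular medium came from replicate 1. Summed over libraries and scaled, the ratio of IFNγ/LPS CM to naive CM was 3335 with an exact 95% interval of 598 to 131771, which is wide because the denominator is 1 count. Against regular medium the ratio was 569 (261 to 1552). Both differences passed edgeR's test (adjusted p = 3.27e-14 and 4.14e-14). Naive CM and regular medium, with 1 and 6 counts, had a ratio of 0.171 (0.0037 to 1.41) and an edgeR adjusted p of 0.160.

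The 3′ untranslated region of Csf2 is shown in part because its message held repeats of the AU-rich nonamer by which many short-lived messages are recognised, and no other ligand here did. The stretch covers bases 232 to 261 of the 317 bases of this region, chr11:54247327-54247356, minus strand, GENCODE M21 on GRCm38, and capitals mark overlapping matches to TTATTTATT.
Csf2: tttaaatatTTATTTATTTATTTATTTATT
The stretch holds all 4 matches in the region, which also holds the pentamer ATTTA 9 times. The nonamer was found in the longest 3′ untranslated region of 7.66% of 20538 genes. Among 1870 genes with regions of 254 to 396 bases, 2.46% held it and 0.107% held it at least 4 times. Csf1, Csf3, Il34 and Kitl held no nonamer in regions of 2111, 669, 605 and 4435 bases, with 4, 6, 1 and 14 pentamers. Only the sense strand was searched, and the search was added after the values of the genes were known.

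Csf3 was detected at a low level in IFNγ/LPS CM and had no count in the other 8 libraries. The gene (ENSMUSG00000038067) spans chr11:98701263-98703629 on the plus strand. The libraries of IFNγ/LPS CM held 13, 5, 5 and 5 counts, or 0.350, 0.145, 0.139 and 0.147 CPM, so replicate 1 held 13 of the 28. The other groups were set at 3 counts over the group, the limit that a count of 0 allows. With that setting Csf3 was 13.2-fold higher than in naive CM and 13.5-fold higher than in regular medium. These ratios take the 28 counts of IFNγ/LPS CM as exact. The exact 95% intervals of the ratios, which allow for counting error in both groups, had lower limits of 10.0 and 10.3. Without replicate 1 of IFNγ/LPS CM the ratios to 3 counts were 9.57 and 9.79. The gene did not pass the filter, and a fit without the filter, chosen after the data were seen, gave edgeR adjusted p values of 1.11e-05 and 9.86e-06.

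Kitl was at nearly the same level in the 3 media. The gene (ENSMUSG00000019966) spans chr10:100015630-100100416 on the plus strand. Its libraries stood at 83.0, 81.9, 76.4 and 72.1 CPM in IFNγ/LPS CM, at 76.7, 77.6, 78.8 and 78.0 CPM in naive CM and at 68.8, 80.6, 67.0 and 70.1 CPM in regular medium. The groups overlapped, and the means were 78.3 ± 5.04, 77.8 ± 0.894 and 71.6 ± 6.10 CPM (SD, n = 4 each). The log2 fold change was 0.01 for IFNγ/LPS CM against naive CM (SE 0.055, edgeR adjusted p = 0.871) and 0.12 for naive CM against regular medium (SE 0.055, edgeR adjusted p = 0.110). Against regular medium IFNγ/LPS CM was higher by 0.13 (SE 0.055, edgeR adjusted p = 0.0460), a call that was lost in 10 of 16 alternative fits. Scaling by library totals in place of the trimmed mean of M values (TMM) gave -0.38 against naive CM (edgeR adjusted p = 5.09e-06) and -0.26 against regular medium (edgeR adjusted p = 0.000363), so no direction is given for Kitl. Without replicate 2 of regular medium the difference between naive CM and regular medium was 0.18 (edgeR adjusted p = 0.0070).

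**Figure D1:**
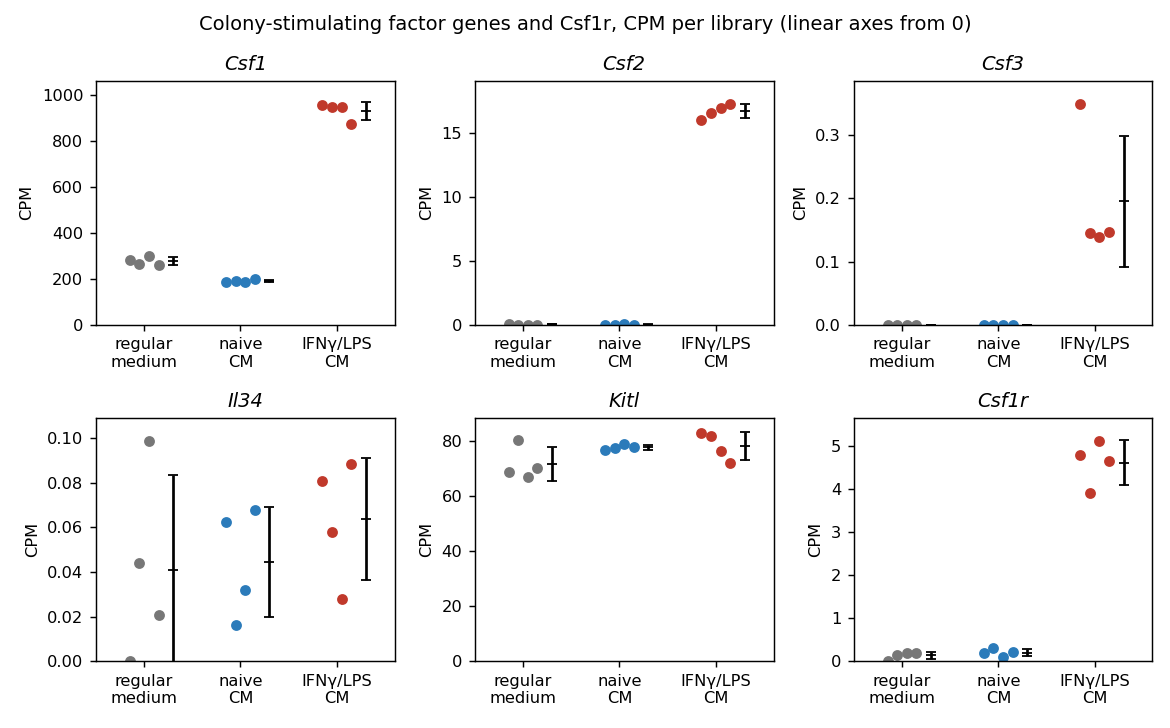
CPM of the 6 genes (y axis, linear, from 0, a scale of its own for each gene) in each of the 12 libraries by medium (x axis), with points in replicate order and bars for mean ± SD of 4 libraries; the lower end of the Il34 bar in regular medium is below 0 and is not drawn. Csf1, Csf2, Csf3 and Csf1r stand apart in IFNγ/LPS CM, while Kitl and Il34 overlap between the media.

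Csf1r, the receptor of Csf1 and Il34, was low in all groups and highest in IFNγ/LPS CM. The gene (ENSMUSG00000024621) lies on the plus strand of chromosome 18, from 61100598 to 61132149. Its libraries held 178, 135, 185 and 158 counts in IFNγ/LPS CM, 9, 19, 3 and 13 in naive CM, and 1, 10, 6 and 10 in regular medium. The lowest library of IFNγ/LPS CM held 135 counts and the highest of all others 19, while naive CM and regular medium overlapped. The means were 4.62 ± 0.515, 0.203 ± 0.0873 and 0.142 ± 0.0873 CPM (SD, n = 4 each). The scaled ratio of summed counts was 21.0 (exact 95% interval 15.5 to 29.3) for IFNγ/LPS CM against naive CM and 35.1 (23.9 to 53.7) against regular medium, with edgeR adjusted p of 2.61e-10 and 9.64e-11. Between naive CM and regular medium the log2 fold change was 0.68 (SE 0.43, edgeR adjusted p = 0.242).

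Since Csf1r is a defining gene of macrophages and the media had been in contact with macrophages, 20 other macrophage markers were measured beside it. Their summed level was 33.4 to 35.1 CPM in regular medium, 33.0 to 36.5 CPM in naive CM and 54.2 to 65.2 CPM in IFNγ/LPS CM. Of the 20, 7, 6 and 5 had no count in these groups in turn, and 13, 14 and 13 had fewer than 10 counts. Some defining markers were at or near 0 in IFNγ/LPS CM, where Ptprc (CD45) had 1 count, Adgre1 (F4/80) 2, Fcgr1 0 and Itgam (CD11b) 6. Other markers of the list were not, with 6092 counts for Cd14, 1470 for Mertk and 881 for Cd68. Lyz2 had 67 counts there, Cx3cr1 24, Fcer1g 12 and Mrc1 10. Csf1r had 656 counts in the same libraries, and these counts are not corrected for length. Only 4 markers passed the filter. Of these Cd68, Lyz2 and Cd14 rose against naive CM (log2 fold changes 2.54, 2.39 and 1.20), while Mertk, a receptor for dying cells, fell by 0.49 on that scale (edgeR adjusted p between 4.03e-12 and 0.000249). Cd14 and Mertk were also at 13.2 and 20.1 CPM in regular medium, which the labels do not tie to macrophages. The 8 neutrophil markers summed to 2.00 to 2.50 CPM in IFNγ/LPS CM and to no more than 0.103 CPM elsewhere. Camp had 4, 1 and 234 counts and S100a8 2, 2 and 65 in regular medium, naive CM and IFNγ/LPS CM, each of the other 6 had at most 4 in any group, and Mpo, Elane and S100a9 had none. The part of any of these markers' cells in the Csf1r counts was not tested.

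**Figure D2:**
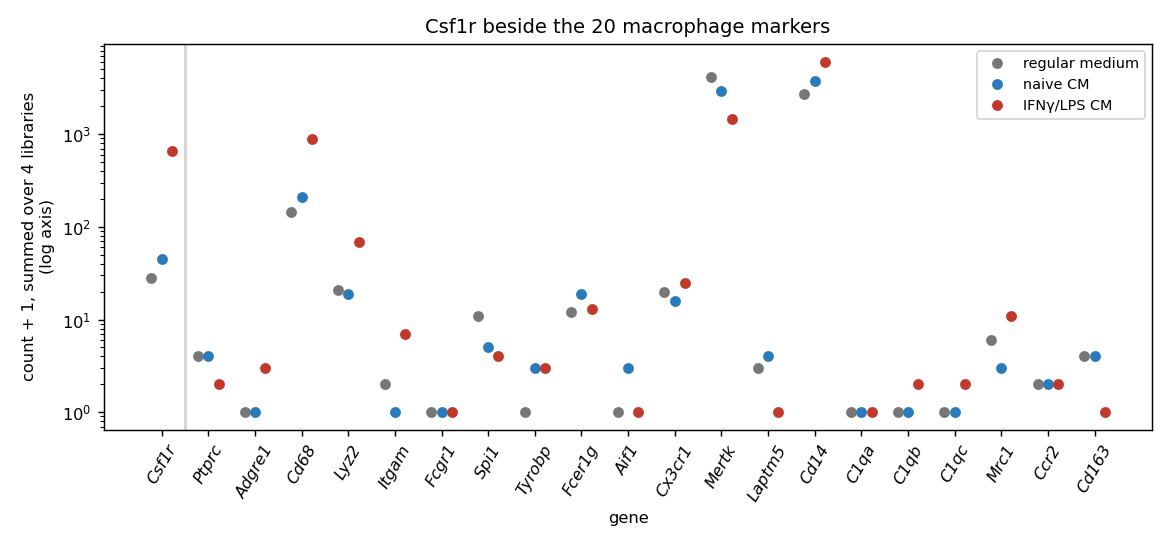
Counts summed over the 4 libraries of a medium, plus 1 (y axis, log scale), for Csf1r and for each of 20 macrophage markers (x axis), coloured by medium. Csf1r reaches 656 counts in IFNγ/LPS CM, where Ptprc, Adgre1 and Fcgr1 have 1, 2 and 0. Cd14, Mertk and Cd68 have 6092, 1470 and 881 there.

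The gene directly before Csf1r on the same strand is Pdgfrb, a growth factor receptor of mural cells, which ends at 61085061. It stood at 507 ± 19.6 CPM in regular medium, 476 ± 7.87 CPM in naive CM and 782 ± 22.2 CPM in IFNγ/LPS CM (SD, n = 4 each). Its log2 fold change against naive CM was 0.72 (edgeR adjusted p = 2.36e-12), against 4.40 for Csf1r, and with library totals these were 0.33 and 4.02. Of the 6 neighbours listed for the members, Il3, beside Csf2, had no count in any library, so the limit that 0 counts allow in IFNγ/LPS CM was 0.0212 CPM over the group. Psmd3 and Med24, on either side of Csf3, differed by 0.34 and -0.36 (edgeR adjusted p = 0.000334 and 3.85e-06), and with library totals Psmd3 stood at -0.04 (edgeR adjusted p = 0.557) and Med24 at -0.75. Ahcyl1, beside Csf1, fell by 0.47 (edgeR adjusted p = 3.41e-07), or by 0.86 with library totals. Vac14, near Il34, fell by 0.15 (edgeR adjusted p = 0.0354), or by 0.54 with library totals. None of the 5 tested neighbours differed by as much as Csf1, Csf2 or Csf1r.

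The other receptors of these ligands were low or absent, with the exception of Sdc1. Csf2ra, the chain that gives the GM-CSF receptor its specificity, held 1.61, 1.50, 1.77 and 1.59 CPM in IFNγ/LPS CM, against 0.931 to 1.21 CPM in naive CM and 0.723 to 1.28 CPM in regular medium. It was higher than in naive CM by 0.61 on the log2 scale (edgeR adjusted p = 0.00723) without overlap, and this call was lost with library totals (0.22, edgeR adjusted p = 0.290). The shared signalling chain Csf2rb had 1, 0 and 3 counts in regular medium, naive CM and IFNγ/LPS CM, and its near-identical copy Csf2rb2 had none, which is uncertain because the counting could divide reads between these copies. Csf3r, the receptor of Csf3, had 0, 0 and 2 counts. Per kilobase of exon in IFNγ/LPS CM, Csf2 stood at 20.9 CPM and Csf2rb at 0.00286 CPM, and Csf3 at 0.138 CPM and Csf3r at 0.00405 CPM.

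Il3ra, the specific chain of the interleukin 3 receptor, stood at 12.3, 12.2, 10.8 and 14.1 CPM in IFNγ/LPS CM and at 4.43 to 5.75 CPM in naive CM, a rise of 1.26 on the log2 scale (SE 0.31, edgeR adjusted p = 0.00456). In regular medium its libraries stood at 4.86, 5.31, 5.67 and 13.6 CPM. The last of these, replicate 4, lay within the range of IFNγ/LPS CM, and the difference from regular medium was 0.75 (edgeR adjusted p = 0.0505). Without that library it was 1.23 (edgeR adjusted p = 2.67e-09). With library totals and all libraries it was 0.37 (edgeR adjusted p = 0.293), and the rise against naive CM was 0.87 (edgeR adjusted p = 0.0269).

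Kit, the receptor of Kitl, was highest in regular medium and lowest in IFNγ/LPS CM. It stood at 2.13, 2.14, 2.14 and 2.21 CPM in regular medium, at 0.894, 1.07, 1.22 and 0.983 CPM in naive CM and at 0.700, 0.579, 0.638 and 0.796 CPM in IFNγ/LPS CM. No groups overlapped. The fall was 1.06 on the log2 scale in naive CM against regular medium (SE 0.15, edgeR adjusted p = 2.54e-05), and Kit fell by 0.61 in IFNγ/LPS CM against naive CM (SE 0.17, edgeR adjusted p = 0.00427). Kit also marks mast cells, and 6 other mast cell markers were measured beside it. Cpa3, Tpsb2 and Fcer1a had no count in any group and Ms4a2 had 1 count in regular medium. Mcpt4 had 11, 29 and 8 counts and Cma1 4, 1 and 12 in regular medium, naive CM and IFNγ/LPS CM, and their part in the result was not tested. Flt3, a related receptor of blood cell precursors, had 1, 2 and 1 counts.

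Ptprz1 and Sdc1, a receptor phosphatase and a syndecan that are known as further binding partners of Il34, both fell in IFNγ/LPS CM against naive CM. Sdc1 was abundant, at 373 ± 17.7 CPM in regular medium, 438 ± 14.8 CPM in naive CM and 353 ± 3.63 CPM in IFNγ/LPS CM (SD, n = 4 each). It fell by 0.31 on the log2 scale against naive CM (edgeR adjusted p = 1.18e-06) and had risen by 0.23 in naive CM against regular medium (edgeR adjusted p = 0.000195). Ptprz1 had 74, 56 and 14 counts in all and fell by 1.52 (SE 0.51, edgeR adjusted p = 0.0119). Of the 10 receptors, 6 were tested in IFNγ/LPS CM against naive CM, with 3 higher, 3 lower and a median of 0.15, beside 36.1% and 35.8% of all tested genes. With library totals 2 were higher and 3 lower with a median of -0.24, beside 20.3% and 58.1% of all tested genes. Csf1r is among these 6 and passed the filter only through the group in which it was high. The counts and medians of the receptors thus carry no weight as support.

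Of 5 other ligands of blood cell precursors 2 were tested, and Flt3l rose in IFNγ/LPS CM. This ligand of Flt3 stood at 12.8, 12.8, 15.5 and 12.9 CPM in IFNγ/LPS CM, at 4.80 to 5.01 CPM in naive CM and at 3.19 to 4.32 CPM in regular medium, with no overlap. It was 2.77-fold higher than in naive CM (log2 fold change 1.47, SE 0.10, edgeR adjusted p = 9.71e-11). The difference of 0.31 between naive CM and regular medium passed (edgeR adjusted p = 0.0268), but not without naive CM replicate 2, naive CM replicate 3 or regular medium replicate 2 (adjusted p = 0.0519, 0.0566 and 0.0993). Thpo, thrombopoietin, stood at 1.59, 1.97 and 1.51 CPM (edgeR adjusted p = 0.0858 for IFNγ/LPS CM against naive CM). That difference was -0.38 on the log2 scale and passed with library totals (-0.76, edgeR adjusted p = 0.00102), in a fit with a replicate block and without replicate 3 of IFNγ/LPS CM (-0.53, edgeR adjusted p = 0.0235). Il5 had 9 counts in each group, Il3 none and Epo 1 count in IFNγ/LPS CM only.

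**Figure D3:**
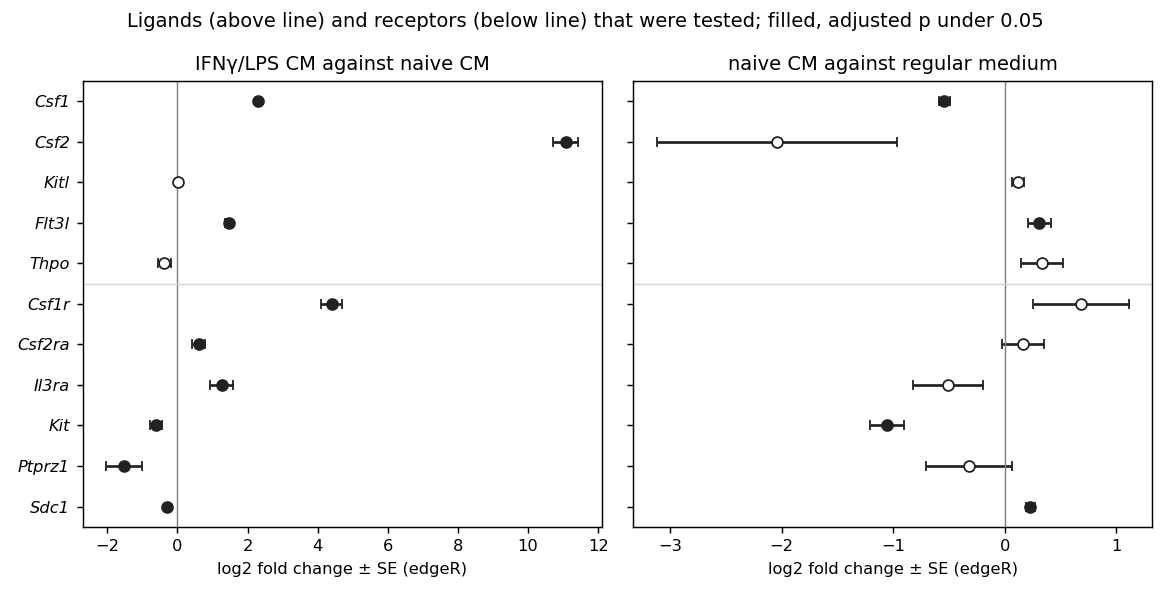
Log2 fold change ± SE (x axis, edgeR) of the tested ligands and receptors (y axis) in IFNγ/LPS CM against naive CM and in naive CM against regular medium; filled points have an adjusted p under 0.05 and the horizontal axes differ. Csf2, Csf1r and Csf1 lie farthest to the right in the first panel, and in the second Csf1 and Kit lie at -0.54 and -1.06 with filled points.

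Per kilobase of exon, the order of the members in IFNγ/LPS CM was Csf1 at 177 CPM, Csf2 at 20.9, Kitl at 13.3, Csf1r at 0.800, Csf3 at 0.138 and Il34 at 0.0325. The ranges of mean ± SD did not overlap between neighbours among the first 5 (SD 7.43, 0.666, 0.853, 0.0893 and 0.0730, n = 4), while the values of Csf3 and Il34 rest on 28 and 9 counts. In naive CM the order was Csf1 at 36.0, Kitl at 13.2, Csf1r at 0.0351, Il34 at 0.0228 and Csf2 at 0.0100, and the last 3 of these did not differ beyond their spread (SD 0.0151, 0.0126 and 0.0201). The place of Csf2 thus moved from below Kitl to above it.

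The proteins that carry signals from these receptors were examined next, 24 genes of which 23 were tested. This list and those after it were chosen with earlier results of these data known. An excess over the shares of all tested genes thus carries no weight as support. In IFNγ/LPS CM against naive CM, 18 were higher and 2 lower, beside 36.1% and 35.8% of all tested genes, and their median log2 fold change was 0.53, against 0.004 over all tested genes. Socs1, an inhibitor of cytokine signalling, reached 90.7 ± 3.32 CPM from 0.593 ± 0.0356 CPM (SD, n = 4 each), a log2 fold change of 7.24 (edgeR adjusted p = 1.23e-22). Cish and Socs3, of the same family, rose by 4.46 and 3.18 on that scale (edgeR adjusted p = 2.25e-09 and 3.98e-19). The kinase Jak2, which couples to the receptors of Csf2 and Csf3, rose by 3.40 to 506 ± 9.59 CPM (edgeR adjusted p = 2.51e-21). Stat5a, a transcription factor that these kinases activate, fell by 0.37 (edgeR adjusted p = 3.43e-06). With library totals the list held 10 higher and 8 lower, with a median of 0.14, since that scaling moved the median of all genes to -0.38, with 20.3% of all tested genes higher and 58.1% lower. These genes serve many other cytokines, interferons among them.

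In naive CM against regular medium 4 of the 23 signalling genes were higher and 4 lower, with a median of -0.06, shares close to the 18.3% higher and 16.4% lower of all tested genes. Cish fell by 0.99 on the log2 scale in that comparison (edgeR adjusted p = 0.00981) and Socs3 rose by 0.39 (edgeR adjusted p = 0.000148).

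Of 23 transcription factors known to act on colony-stimulating factor genes, all tested, 18 were higher and 2 lower in IFNγ/LPS CM against naive CM, beside 36.1% and 35.8% of all tested genes. Their median was 1.76, and library totals gave 18 higher, 3 lower and 1.37. Irf1, an interferon-induced factor, rose from 39.1 ± 1.01 to 1581 ± 59.5 CPM (SD, n = 4 each; log2 fold change 5.34, edgeR adjusted p = 3.86e-24). Fosl1, an AP-1 subunit, Nfkbiz, a nuclear partner of NF-κB, and Runx1 rose by 4.34, 4.07 and 3.97 (edgeR adjusted p = 1.95e-06, 2.63e-18 and 1.24e-18). Nfatc3, a factor activated by calcium, fell by 0.19 (edgeR adjusted p = 0.000707). In naive CM against regular medium 3 of these were higher and 4 lower, with a median of -0.09, beside 18.3% and 16.4% of all tested genes.

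Factors that bind AU-rich or stem-loop elements and set the life span of cytokine messages moved both ways. Of 12 tested, 8 were higher and 2 lower in IFNγ/LPS CM against naive CM, beside 36.1% and 35.8% of all tested genes. Their median was 0.33, and library totals gave 4 higher, 4 lower and -0.06. Those that rose included proteins with opposite known roles. Arid5a, which protects messages, rose by 4.73 (edgeR adjusted p = 4.74e-21), and Zc3h12a (Regnase-1), which cuts them, rose by 4.31 (edgeR adjusted p = 9.38e-19). Zfp36 and Zfp36l1, which bind the nonamer shown for Csf2 and speed decay, rose by 2.34 and 1.76 (edgeR adjusted p = 1.04e-13 and 1.30e-11). Tia1, a binder of AU-rich messages that represses their translation, fell by 0.75 (edgeR adjusted p = 2.61e-11). In naive CM against regular medium edgeR called 0 of the 12 higher (0 also at an unadjusted p under 0.05, by DESeq2 and by limma-voom) and 6 lower, with a median of -0.20, beside 18.3% and 16.4% of all tested genes.

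Csf1 and Kitl are made as membrane-bound forms that proteases release. Of 9 genes of shedding and its control, 8 were tested, with 4 higher and 2 lower in IFNγ/LPS CM against naive CM and a median of 0.13, or 3 higher, 4 lower and -0.26 with library totals. The first of these counts are close to those of all tested genes, of which 36.1% were higher and 35.8% lower. Adam17, a sheddase of Csf1, rose from 87.5 ± 2.56 to 274 ± 6.27 CPM (SD, n = 4 each; log2 fold change 1.64, edgeR adjusted p = 1.20e-17). Its regulator Rhbdf2 rose by 1.44 (edgeR adjusted p = 6.07e-09), while the related Rhbdf1 fell by 0.68 (edgeR adjusted p = 1.11e-05). The metalloproteases Adam9 and Mmp14 rose 2.14-fold and 1.26-fold (edgeR adjusted p = 3.32e-15 and 5.51e-07), and for Mmp14 the sign of the log2 change of 0.34 turned with library totals (-0.05, edgeR adjusted p = 0.293).

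Of 11 receptors and adaptors for cytokines and LPS that can induce these ligands, 10 were higher and 1 lower in IFNγ/LPS CM against naive CM, beside 36.1% and 35.8% of all tested genes. Their median was 1.11, and library totals gave 8 higher, 2 lower and 0.72. Myd88, the adaptor of the interleukin 1 and Toll-like receptors, rose by 2.64 and Tnfrsf1b, a receptor of tumour necrosis factor, by 2.61 (edgeR adjusted p = 1.08e-19 and 1.11e-20). Tnfrsf1a and Il1rap rose by 1.42 and 1.37 (edgeR adjusted p = 4.22e-15 and 1.53e-14). Il1r1, the signalling receptor of interleukin 1, fell by 0.69 (edgeR adjusted p = 3.66e-10) and had also fallen by 0.44 in naive CM against regular medium (edgeR adjusted p = 1.25e-06).

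**Figure D4:**
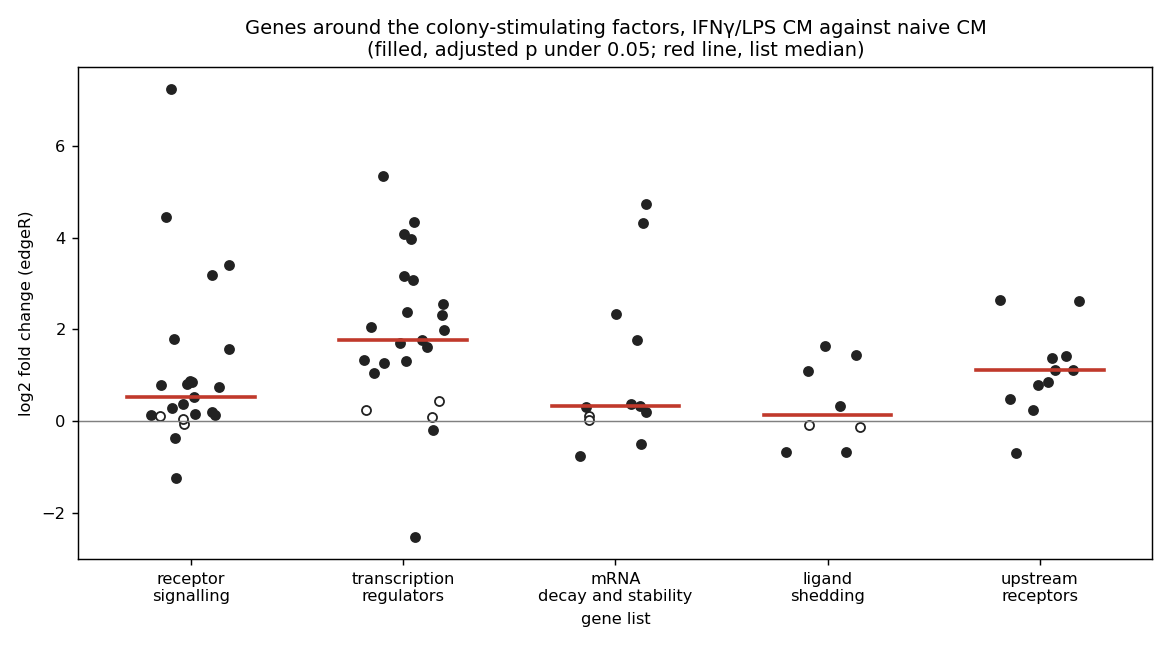
Log2 fold change in IFNγ/LPS CM against naive CM (y axis, edgeR) of each tested gene in 5 lists (x axis); filled points have an adjusted p under 0.05 and red lines are list medians, at 0.53, 1.76, 0.33, 0.13 and 1.11 from left to right. With library totals in place of TMM the medians are 0.14, 1.37, -0.06, -0.26 and 0.72.

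Genes with a pattern most like a member were found by the root mean square (RMS) difference of centred log2 CPM over the 12 libraries. Only tested genes were searched. Genes without a symbol, and those with symbols that begin with Gm and a digit or end in Rik, were left out. For Csf1 these were Ripor2, Tmcc3 and Igf2bp2, at 0.083, 0.084 and 0.097. Ripor2 stood at 18.1, 11.6 and 56.2 CPM in regular medium, naive CM and IFNγ/LPS CM, which is the order of Csf1. For Csf2 they were Epsti1, Irf8 and Kcna4, at 0.35 to 0.40, and Irf8 stood at 0.0542, 0.0664 and 31.3 CPM. For Csf1r they were Lgi2, Slc7a11 and Gch1, at 0.46 to 0.50. None of these was in the macrophage list, but only 4 of its 20 markers had passed the filter and could be found. The absence of macrophage markers here thus carries no weight. For Kitl they were Tmed2, Fam45a and Dpy19l4, at 0.051 to 0.054, which varied as little as Kitl itself.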

How the data were processed

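RNA-seq libraries of mouse aortic smooth muscle cells, 4 per medium, were analysed from 1 table of gene counts. Per the labels' protocols the libraries were made with a stranded mRNA kit, and per the submitters' processing notes Salmon 1.10.1 estimated expression, with mm10 as the build. The authors deposited expected counts (estimated counts) per gene as whole numbers, and how transcripts were summed or rounded is not given in the sources used here. Identifiers were matched without version to GENCODE M21, and 51344 (92%) had a symbol. Columns were mapped by name, the M0 ones taken as naive CM and the M1 ones as IFNγ/LPS CM.

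Counts were filtered with edgeR 4.0.16 filterByExpr, scaled by TMM and tested in 1 model of 12 libraries by the two-sided, robust quasi-likelihood F-test, with Benjamini-Hochberg adjustment over 16140 genes and a threshold of 0.05, in R 4.3.3. Mean TMM factors were 0.836 for IFNγ/LPS CM and 1.09 for each of the other media. CPM divide a count by its library's TMM-scaled total, times 1000000. SEs are the absolute log2 fold change over the square root of F. Genes of few counts have exact conditional binomial 95% intervals, and a group without counts was set at 3 counts. Exon lengths are unions over GENCODE M21.

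The 6 genes and all lists were chosen with earlier results of these data known. Named were the members, the listed ligands and receptors whatever their result, and from each other list up to 4 called genes without overlap and with at least 5 CPM that changed most in the list's main direction and 1 in the other; markers and neighbours were named for description. Same-numbered libraries were not treated as paired, since none of 12 pairs of deviations correlated over 0.1. Alternatives were scaling by DESeq2 1.42.0 size factors or by library totals, testing by its Wald test or by limma-voom (limma 3.58.1), no filter or a filter at 1 CPM in 4 or more libraries, a fit restricted to the compared groups, a replicate block, and omitting each library in turn. The fit was tested on simulated data.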

Additional observations from a re-analysis of the deposited data

Results flagged for a closer look

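Sets of 4 libraries with any counts were taken from the 6 members and the other tested ligands and receptors. In 37 such sets a library far from the rest of its group was searched for, and 6 were found. The rule's chance rate of about 1 in 20 does not apply to sets of few counts. A set with counts in only 1 library, such as Csf2 in naive CM, is flagged by the rule itself. For Csf1 in IFNγ/LPS CM, replicate 4 stood at 874 CPM, below the other libraries at 950 to 957 CPM. For Csf2 in naive CM, replicate 3 stood at 0.0321 CPM, which is 1 count, with 0 in the others. For Csf3 in IFNγ/LPS CM, replicate 1 stood at 0.350 CPM, which is 13 counts, against 0.139 to 0.147 CPM in the others. For Il3ra in regular medium, replicate 4 stood at 13.6 CPM, above the others at 4.86 to 5.67 CPM. For Kit in regular medium, replicate 4 stood at 2.21 CPM against 2.13 to 2.14 CPM, a small distance between very close values. For Flt3l in IFNγ/LPS CM, replicate 3 stood at 15.5 CPM against 12.8 to 12.9 CPM.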

How the results depend on the processing

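The calls of Csf1, Csf2 and Csf1r kept their direction and their side of the threshold in all 3 comparisons under each of 16 alternatives. Without 1 library the ratios of Csf3 to a group set at 3 counts ran from 9.11 to 14.5 for naive CM. For regular medium they ran from 9.02 to 14.9. Kitl depended on the processing. Library totals turned its sign in IFNγ/LPS CM against naive CM (-0.38) and against regular medium (-0.26), and that of Mmp14 (-0.0514). The call of Kitl against regular medium was lost with the filter at 1 CPM (0.12), the DESeq2 Wald test (0.13), limma-voom (0.12) and a fit of only the groups compared (0.13), and without 1 library the value ran from 0.098 to 0.19. For naive CM against regular medium it ran from 0.087 to 0.18 without 1 library, and passed without regular medium replicate 2. Library totals moved the median of all genes to -0.38 in IFNγ/LPS CM against naive CM and the share of higher among called genes from 50.2% to 25.9%, and from 49.3% to 25.5% against regular medium. With the replicate number as a block, Csf1 stood at 2.29 and Kitl against regular medium at 0.13 (edgeR adjusted p = 0.0289), and the genes called numbered 11653, 5780 and 11610 in the 3 comparisons, beside 11611, 5594 and 11594. The numbers share no stated source, and 5 of 12 libraries correlated best with their own number. The block moved 2 calls of other genes past the threshold, Il3ra against regular medium (0.85, adjusted p = 0.0113) and Thpo against naive CM (-0.40, adjusted p = 0.0410). Depth limits Csf3, Il34, Csf2rb, Csf3r and Flt3, which rest on 0 to 28 counts per group.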
